A study of Mus musculus with 24 samples.

Results

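The genes described here are 8 members of arginine metabolism and nitric oxide synthesis (Slc7a2, Nos2, Gch1, Ass1, Asl, Arg1, Arg2 and Odc1), chosen by name and found by Ensembl identifier among 52636 gene models. RNA was sequenced from 24 libraries of mouse bone marrow-derived macrophages, a primary culture in which marrow precursors are grown into macrophages. The cells came from Ninj1 knockout mice (KO), which lack a membrane protein that takes part in rupture of the plasma membrane during lytic cell death, or from wild-type C57BL/6 mice (WT). They were stimulated with Pam3, a synthetic lipopeptide that activates the receptor pair of TLR1 and TLR2, or kept in media. This gave 4 groups of 6 libraries, named here KO_Pam3, WT_Pam3, KO_media and WT_media. The labels do not say which part of Ninj1 was deleted or how KO mice were made, nor whether each library had its own mouse or culture, so each p-value reflects the spread among these libraries, which could be technical. The sources used here do not give the dose and duration of Pam3 or the age of the mice.

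Arginine enters macrophages through cationic amino acid transporters and is then divided between competing enzymes. Inducible nitric oxide synthase, encoded by Nos2, oxidizes arginine to citrulline and nitric oxide with tetrahydrobiopterin as cofactor, and argininosuccinate synthase and lyase can rebuild arginine from citrulline. Arginases cleave arginine to ornithine and urea instead, and ornithine decarboxylase turns ornithine into the polyamine putrescine. In mouse macrophages, strong expression of Nos2 is a known mark of microbial activation, whereas Arg1 is known for its response to interleukin-4 and interleukin-13.

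Between 31302011 and 40663152 reads per library were counted on gene models. Ninj1 checked the genotype labels: it lay at 409 to 479 CPM (read counts scaled to library size) in KO_Pam3 and 646 to 1145 CPM in WT_Pam3, and at 151 to 179 CPM in KO_media and 289 to 325 CPM in WT_media, so that within a treatment each KO library lay below all WT libraries. The reads that remain cover an unspecified part of the gene and say nothing about the protein. Xist was counted in all 24 libraries at 6443 to 32151 reads and the Y-linked genes at 0 to 27 reads in all, although WT libraries are labelled male (the sex of KO libraries is not labelled). All 10 macrophage markers checked were detected, with summed levels of 26820 to 39132 CPM. Replicate 5 of WT_Pam3 stood far apart, with 12.2% of its reads in the 10 most abundant genes where the other WT_Pam3 libraries had 9.49% to 9.60%. Its Xist count was 6443 reads, where those libraries had 16411 to 20155. Over all genes its counts differed from theirs by a chi-square per degree of freedom of 116 to 142. Pairs among the other WT_Pam3 libraries had 2.55 to 7.67. Replicate 1 of KO_media stood apart in Nos2 and Gch1, with values given beside those genes. Fewer cells of a type and less RNA per cell cannot be told apart in such bulk samples.

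Pam3 changed 7 of the 8 genes in the same direction in both genotypes. Slc7a2, Nos2, Gch1, Ass1, Arg2 and Odc1 rose, Arg1 fell, and Asl did not pass the test. A gene was called at a Benjamini-Hochberg adjusted p under 0.05 in edgeR's quasi-likelihood test, and this background was high: 85% of the 14435 tested genes were called with Pam3 in KO and 84.8% in WT, so 7 of 8 is near the share of all genes. Of all tested genes 40.2% rose and 44.8% fell in KO, and 40.6% rose and 44.2% fell in WT. The 6 libraries of Pam3 and the 6 of media did not overlap for 75.7% of tested genes in KO and 68.8% in WT. As a description of their size, the median log2 fold change of the 8 genes was 2.82 in KO and 2.74 in WT, beside -0.07 in KO and -0.05 in WT for all tested genes. Between genotypes there were fewer calls, here as over all genes. Arg1 was the only one of the 8 called between KO_media and WT_media, where 3.03% of tested genes were called (1.92% higher and 1.12% lower), and its call was lost when a library was left out in 17 of 24 such fits. None was called between KO_Pam3 and WT_Pam3, where 4.06% of tested genes were called (1.31% higher and 2.75% lower).

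**Figure D1:**
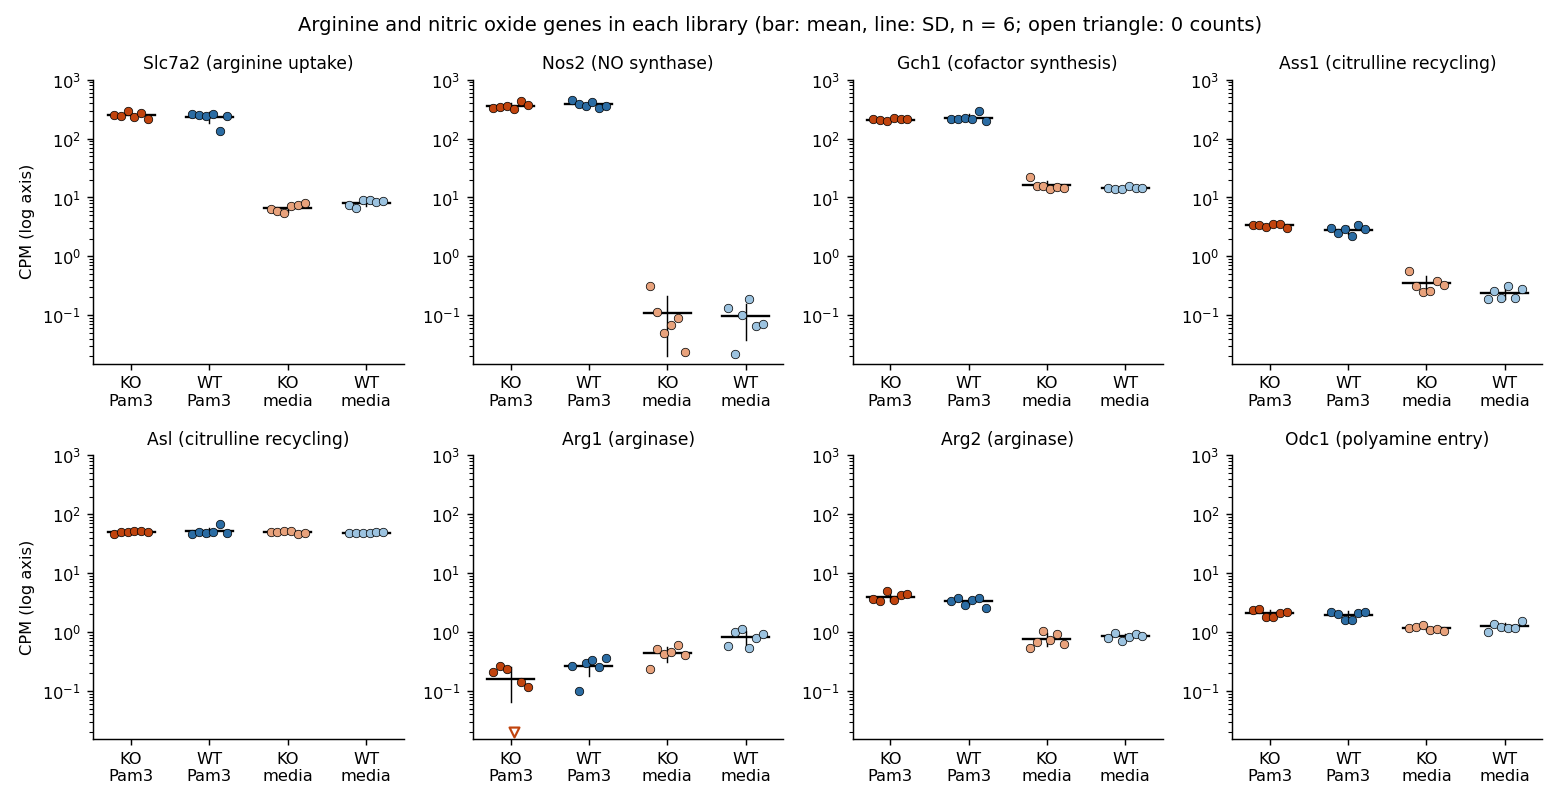
CPM of the 8 genes in each library on a log axis, by group, with the group mean as a bar and the SD as a line (n = 6). 6 panels are higher after Pam3 in both genotypes, Asl is level under the scaling used, Arg1 is lower after Pam3, and the open triangle marks the KO_Pam3 library with 0 counts of Arg1.

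Slc7a2, which encodes an inducible cationic amino acid transporter that brings arginine into the cell, lies on the plus strand of chromosome 8 (GRCm38, chr8:40862396-40922308). Its lowest, median and highest levels were 215, 248 and 293 CPM in KO_Pam3 and 135, 247 and 266 CPM in WT_Pam3. In media they were 5.45, 6.76 and 7.93 CPM in KO and 6.52, 8.53 and 9.22 CPM in WT. The Pam3 and media groups did not overlap in either genotype, and the genotypes overlapped within each treatment. Slc7a2 rose with Pam3 by 5.23 on the log2 scale in KO (SE 0.144, adjusted p = 1.97e-22) and by 4.83 in WT (SE 0.140, adjusted p = 7.12e-22), which are 37.4-fold and 28.4-fold. The low value of 135 CPM in WT_Pam3 belonged to replicate 5, and the other 5 libraries lay between 241 and 266 CPM. The KO over WT difference after Pam3 was 0.11 (95% interval -0.13 to 0.35, adjusted p = 0.679), and it was -0.00 without that library. The responses of the genotypes differed by 0.40 (95% interval 0.03 to 0.77), which did not pass the test (adjusted p = 0.367).

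Nos2, the inducible nitric oxide synthase gene, lies on the plus strand of chromosome 11 (chr11:78920787-78960254). In media it was close to the limit of detection, with 1 to 12 reads per library in KO and 1 to 9 reads in WT. The lowest, median and highest levels of Nos2 were 315, 353 and 431 CPM in KO_Pam3 and 329.9, 377 and 457 CPM in WT_Pam3, against 0.0235, 0.0793 and 0.309 CPM in KO_media and 0.0218, 0.0844 and 0.188 CPM in WT_media. Every Pam3 library was thus far above every media library, and KO and WT overlapped within each treatment. The fitted rise with Pam3 was 11.67 on the log2 scale in KO (SE 0.183, adjusted p = 6.54e-28) and 11.93 in WT (SE 0.185, adjusted p = 4.93e-28), the largest among the 8 genes. With media totals of 27 reads in KO and 25 reads in WT over 6 libraries, the size of this rise is set by few reads. After Pam3 the KO over WT difference was -0.11 (95% interval -0.30 to 0.08, adjusted p = 0.588), and it ranged from -0.17 (without KO_Pam3 replicate 5) to -0.058 (without WT_Pam3 replicate 1) when 1 library was left out. In media the interval of the difference was too wide to place it (0.14, 95% interval -0.95 to 1.24), and the sign turned without KO_media replicate 1 (-0.44). That library held the highest media level of Nos2.

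The genes whose log2 CPM profile over the 24 libraries was most like that of Nos2 were Acod1, Cxcl2 and Marco. Acod1 encodes the enzyme that makes itaconate, Cxcl2 a chemokine that attracts neutrophils, and Marco a scavenger receptor. After each profile was centred on its own mean, they differed from Nos2 by a root mean square of 0.448, 0.483 and 0.513 log2 units. Acod1 averaged 11839 CPM in KO_Pam3 and 11940.5 CPM in WT_Pam3, against 5.80 CPM in KO_media and 2.93 CPM in WT_media.

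Gch1 encodes GTP cyclohydrolase, the entry and rate-limiting enzyme of tetrahydrobiopterin synthesis, and lies on the minus strand of chromosome 14 (chr14:47153895-47189413). RefSeq's promoter table on GRCm38.p6 held entries for 3 of the 8 genes, namely Gch1, Ass1 and Odc1, and none for Slc7a2, Nos2, Asl, Arg1 and Arg2. These 3 are shown because they had entries, not because of their response to Pam3. Each sequence runs 5′ to 3′ on the strand of its gene, from 250 bases before to 50 bases after RefSeq's start, and capitals mark matches on either strand to one of 7 motifs. These were the TATA box (TATAAA), the GC box (GGGCGG), the E-box of MYC and USF (CACGTG), an NF-kB form (GGGA, any 4 bases, then CC), the CCAAT box (CCAAT), the core of the cAMP response element (TGACG) and the interferon-stimulated response element core (GAAA, any 2 bases, then GAAA). The Gch1 window covers chr14:47189364-47189663, the Ass1 window chr2:31470020-31470319 and the Odc1 window chr12:17544623-17544922.
Gch1: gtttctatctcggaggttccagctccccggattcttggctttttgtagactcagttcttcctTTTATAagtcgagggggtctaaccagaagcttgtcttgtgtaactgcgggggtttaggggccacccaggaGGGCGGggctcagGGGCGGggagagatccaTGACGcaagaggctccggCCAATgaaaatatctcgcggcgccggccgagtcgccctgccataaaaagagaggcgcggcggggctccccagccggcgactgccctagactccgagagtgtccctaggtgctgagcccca
Ass1: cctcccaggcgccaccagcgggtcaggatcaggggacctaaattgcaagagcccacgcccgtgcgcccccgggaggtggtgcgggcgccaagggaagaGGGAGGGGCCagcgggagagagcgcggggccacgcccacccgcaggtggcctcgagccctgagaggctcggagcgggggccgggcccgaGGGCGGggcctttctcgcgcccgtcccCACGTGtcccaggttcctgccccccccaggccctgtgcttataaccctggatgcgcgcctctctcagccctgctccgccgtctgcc
Odc1: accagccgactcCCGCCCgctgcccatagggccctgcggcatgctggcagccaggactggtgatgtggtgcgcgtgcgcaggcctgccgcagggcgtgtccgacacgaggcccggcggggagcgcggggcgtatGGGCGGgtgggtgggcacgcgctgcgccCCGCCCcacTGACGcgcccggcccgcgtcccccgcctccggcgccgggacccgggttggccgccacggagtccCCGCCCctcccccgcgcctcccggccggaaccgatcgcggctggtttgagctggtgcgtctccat

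The windows were rich in G and C, at 60.3% in Gch1, 74.0% in Ass1 and 78.0% in Odc1, beside a median of 52.7% over 32851 promoters. The Gch1 window held 2 GC boxes, 1 CCAAT box at positions -70 to -66, 1 cAMP response element core at -88 to -84, and 1 TATA box on the opposite strand at -188 to -183, with the start base counted as 0. The Ass1 window held the NF-kB form at -152 to -143, a GC box at -63 to -58 and an E-box at -36 to -31. The Odc1 window held 4 GC boxes and 1 cAMP response element core at -79 to -75. None of these matches overlapped another. Of all promoters, 35.7% held the GC box, 37.4% the CCAAT box, 20.8% the cAMP response element core, 20.7% the NF-kB form, 13.6% the TATA box, 7.15% the E-box and 3.44% the interferon-stimulated response element core. A match describes the letters and not a bound site.

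Gch1 followed Nos2 in direction at a smaller size. From lowest over median to highest, Gch1 had 197, 211 and 219.8 CPM in KO_Pam3 and 201, 219 and 289 CPM in WT_Pam3, against 13.9, 15.3 and 21.98 CPM in KO_media and 13.8, 14.7 and 15.4 CPM in WT_media. Pam3 and media libraries did not overlap, whereas KO and WT did within each treatment. Gch1 rose with Pam3 by 3.71 in KO (SE 0.0923, adjusted p = 1.96e-23) and by 3.96 in WT (SE 0.0934, adjusted p = 5.74e-24) on the log2 scale. The libraries that stood out were WT_Pam3 replicate 5, at 289 CPM where the other 5 had 201 to 221 CPM, and KO_media replicate 1, at 21.98 CPM where the other 5 had 13.9 to 15.6 CPM. KO over WT was -0.11 after Pam3 (95% interval -0.27 to 0.06, adjusted p = 0.547) and -0.03 without WT_Pam3 replicate 5. In media it was 0.14 (95% interval -0.04 to 0.33, adjusted p = 0.571) and 0.03 without KO_media replicate 1.

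Ass1 encodes argininosuccinate synthase, which joins citrulline to aspartate in the first step of rebuilding arginine, and lies on the plus strand of chromosome 2 (chr2:31470207-31520672). It had few reads. Levels (lowest, median, highest) were 3.01, 3.45 and 3.55 CPM in KO_Pam3 and 2.24, 2.91 and 3.40 CPM in WT_Pam3, against 0.249, 0.324 and 0.567 CPM in KO_media and 0.188, 0.230 and 0.313 CPM in WT_media. All Pam3 libraries lay above all media libraries. Within each treatment 4 of 6 KO libraries lay above all WT libraries, and the ranges overlapped. Ass1 rose with Pam3 by 3.26 in KO (SE 0.143, adjusted p = 8.09e-18) and by 3.52 in WT (SE 0.156, adjusted p = 1.09e-17). KO over WT was 0.26 after Pam3 (95% interval 0.03 to 0.48, adjusted p = 0.224) and 0.52 in media (95% interval 0.08 to 0.96, adjusted p = 0.286), neither of which passed the test.

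The Ass1 values are uncertain because 38.6% of the 50-base stretches of its exons also occur in Gm5424, a processed pseudogene, and reads that fit both are absent from unique counts. Gm5424 was named after its values were seen. It held more unique reads than Ass1 itself, 284 to 335 in KO_Pam3 and 159 to 249 in WT_Pam3, against 23 to 88 in KO_media and 12 to 42 in WT_media. It rose with Pam3 by 3.18 in KO (SE 0.191, adjusted p = 2.90e-15) and by 3.23 in WT (SE 0.211, adjusted p = 6.57e-14). After Pam3 all 6 KO libraries, at 8.65 to 11.2 CPM, lay above all 6 WT libraries, at 5.61 to 8.38 CPM, a separation seen in 2.53% of tested genes. The KO over WT difference of 0.52 did not pass the test (SE 0.157, adjusted p = 0.0579). With the counts of Ass1 and Gm5424 summed, a choice made after seeing the data, KO over WT after Pam3 was 0.45 (SE 0.139, adjusted p = 0.0672). The summed rise with Pam3 was 3.20 in KO and 3.31 in WT.

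**Figure D2:**
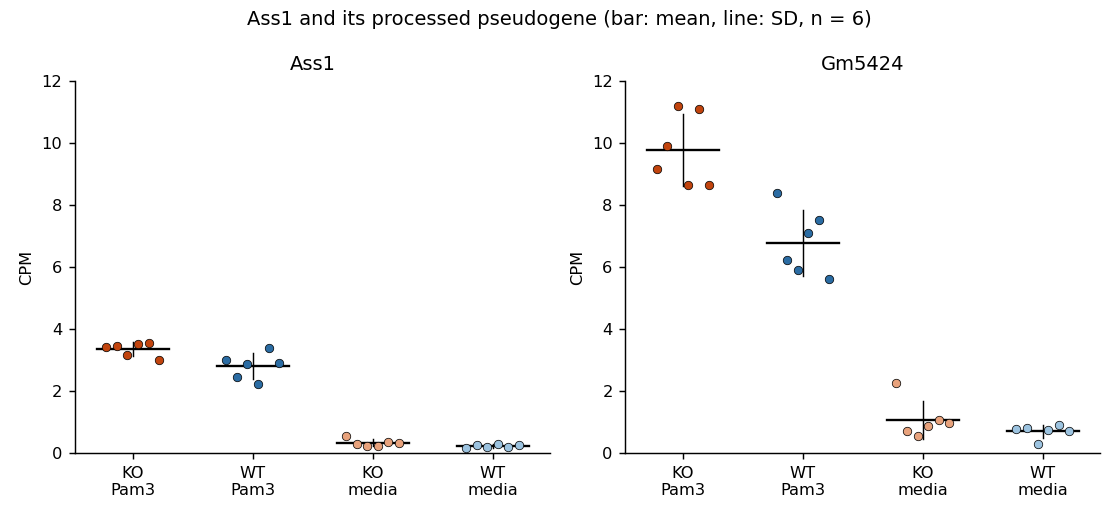
CPM of Ass1 (left) and of its processed pseudogene Gm5424 (right) in each library by group, on a linear axis from 0, with the group mean as a bar and the SD as a line (n = 6). Both are higher after Pam3, and for Gm5424 the KO_Pam3 libraries, at 8.65 to 11.2 CPM, all lie above the WT_Pam3 libraries, at 5.61 to 8.38 CPM.

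Asl encodes argininosuccinate lyase, which releases arginine in the next step of the same route, and lies on the minus strand of chromosome 5 (chr5:130011258-130029247). It was the steadiest of the 8 genes. The lowest, median and highest Asl levels were 45.6, 51.0 and 52.9 CPM in KO_Pam3 and 46.1, 48.9 and 67.4 CPM in WT_Pam3, against 46.5, 49.8 and 52.1 CPM in KO_media and 47.9, 48.3 and 49.9 CPM in WT_media. All 4 groups overlapped, and the highest value was again WT_Pam3 replicate 5. The Pam3 over media difference was 0.02 in KO (95% interval -0.11 to 0.15, adjusted p = 0.774) and 0.08 in WT (95% interval -0.05 to 0.21, adjusted p = 0.219), and it was -0.00 in WT without that library. These values rest on the scaling between libraries: with library totals alone, Asl was called lower with Pam3, by -0.46 in KO and -0.44 in WT, in a setting that moved the median of all tested genes by -0.48 in KO and -0.52 in WT. Ass1 and Asl, which act in sequence, thus differed in their response.

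Arg1, the cytosolic arginase of the alternative macrophage state and of liver, lies on the minus strand of chromosome 10 (chr10:24915221-24927484). It was scarce, at 0 to 46 reads per library. Lowest, median and highest levels were 0, 0.175 and 0.261 CPM in KO_Pam3 and 0.0980, 0.283 and 0.361 CPM in WT_Pam3, against 0.232, 0.442 and 0.604 CPM in KO_media and 0.543, 0.857 and 1.11 CPM in WT_media. The library with 0 reads was KO_Pam3 replicate 4, where a limit of 3 reads is 0.0784 CPM of the unscaled library total. WT_Pam3 and WT_media did not overlap, while KO_Pam3 and KO_media did. Arg1 fell with Pam3, with a log2 fold change of -1.47 in KO (SE 0.358, adjusted p = 0.000515) and -1.61 in WT (SE 0.295, adjusted p = 1.62e-05).

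Between genotypes Arg1 was called lower in KO in media, on few reads. A filter on low counts removed Arg1 when only the KO groups were fitted, so its place in the test depended on WT libraries. KO_media libraries had 9 to 27 reads and WT_media libraries 22 to 46 reads, and the groups overlapped in CPM. The fitted log2 difference of KO over WT was -0.89 (SE 0.246, 95% interval -1.40 to -0.39, adjusted p = 0.0454). The adjusted p ranged from 0.0102 to 0.126 over the alternatives and was above 0.05 in 17 of 24 fits that left out a library. The call was kept only without KO_Pam3 replicate 2 or 4, WT_Pam3 replicate 2 or 5, KO_media replicate 5, or WT_media replicate 1 or 4, while the estimate lay between -1.004 and -0.77 over the 24 fits. After Pam3 the difference was -0.75 (95% interval -1.61 to 0.12, adjusted p = 0.388), and the difference between the responses did not pass the test (0.14, 95% interval -0.94 to 1.23, adjusted p = 0.928). The genes with the most similar profile to Arg1 over 24 libraries were Stac2, Gsdme and Klra3, at a root mean square difference of 0.563, 0.569 and 0.569 log2 units.

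Markers of granulocytes and of stromal and endothelial cells differed with genotype in the same libraries, and so did some macrophage markers. Of 10 macrophage markers, 1 was called higher in KO in media, and 1 higher and 3 lower after Pam3. Mast cell, basophil and lymphocyte markers had 0 calls, dendritic cell markers 1 higher after Pam3, and erythroid markers 1 lower in media. Of all tested genes, 1.92% were called higher in KO in media and 1.31% after Pam3. Summed granulocyte markers (11 genes, S100a9 and Ngp the most abundant in media) were 85.5 to 99.6 CPM in KO_media and 64.3 to 74.6 CPM in WT_media, with 4 of 10 tested markers called higher, none lower and none of the 11 at 0. After Pam3 they were 49.9 to 58.2 CPM in KO and 40.1 to 63.3 CPM in WT, with 2 of 10 called higher. Summed stromal and endothelial markers (11 genes) were 185 to 236 CPM in KO_Pam3 and 129 to 197 CPM in WT_Pam3, and 65.7 to 110 CPM in KO_media and 52.0 to 61.7 CPM in WT_media. Of their 10 tested markers, 3 were called higher in KO after Pam3 and 6 in media, and none lower. Most of the sum after Pam3 came from Pdgfrb, at 85.0 to 109 CPM in KO_Pam3 and 64.0 to 95.04 CPM in WT_Pam3, and Kdr, at 53.5 to 59.1 CPM in KO_Pam3 and 35.6 to 66.0 CPM in WT_Pam3. In media the collagen gene Col1a2 was at 15.8 to 30.9 CPM in KO and 11.0 to 14.5 CPM in WT. Among the 11 granulocyte markers 2 stayed under 1 CPM, Ly6g and Cxcr2. Among the 11 stromal and endothelial markers 2 did, Lum and Emcn. The part of granulocytes and of stromal and endothelial cells in the Arg1 difference was not tested.

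Arg2, the mitochondrial arginase, lies on the plus strand of chromosome 12 (chr12:79130777-79156301) and moved opposite to Arg1. For Arg2 the lowest, median and highest levels were 3.36, 3.88 and 4.98 CPM in KO_Pam3 and 2.59, 3.43 and 3.76 CPM in WT_Pam3, against 0.541, 0.709 and 1.05 CPM in KO_media and 0.718, 0.837 and 0.981 CPM in WT_media. Every Pam3 library lay above every media library. Arg2 rose with Pam3 by 2.39 in KO (SE 0.135, adjusted p = 2.74e-15) and by 1.95 in WT (SE 0.136, adjusted p = 2.75e-13), or 5.23-fold and 3.88-fold. The KO over WT difference was 0.27 after Pam3 (95% interval 0.03 to 0.51, adjusted p = 0.222), and the responses differed by 0.43 (95% interval 0.02 to 0.84), which did not pass the test (adjusted p = 0.373). Arg2 shares 285 bases of exon with Vti1b on the opposite strand, and the library kit does not mark strand, so reads there cannot be told apart. Vti1b, a SNARE protein gene, averaged 76.7 CPM in KO_Pam3 and 85.9 CPM in WT_Pam3, against 53.7 CPM in KO_media and 53.8 CPM in WT_media. It was thus far more abundant than Arg2, and it rose by 0.51 in KO and 0.68 in WT. How many of the Arg2 reads come from Vti1b was not tested.

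Odc1, which encodes ornithine decarboxylase, the first and rate-limiting enzyme of polyamine synthesis, lies on the plus strand of chromosome 12 (chr12:17544794-17551505). Its lowest, median and highest levels were 1.81, 2.14 and 2.42 CPM in KO_Pam3 and 1.63, 2.08 and 2.22 CPM in WT_Pam3, against 1.06, 1.15 and 1.32 CPM in KO_media and 1.02, 1.196 and 1.53 CPM in WT_media. The ranges after Pam3 lay just above those in media. Odc1 rose with Pam3 by 0.87 in KO (SE 0.111, adjusted p = 5.58e-08) and by 0.66 in WT (SE 0.112, adjusted p = 5.11e-06). With library totals alone the rise was 0.39 in KO, still called (adjusted p = 0.00253), and 0.14 in WT, no longer called (adjusted p = 0.234). Of its 50-base exon stretches 24.3% also occur in 16 other genes, so its low unique counts of 38 to 79 reads per library may leave reads out.

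**Figure D3:**
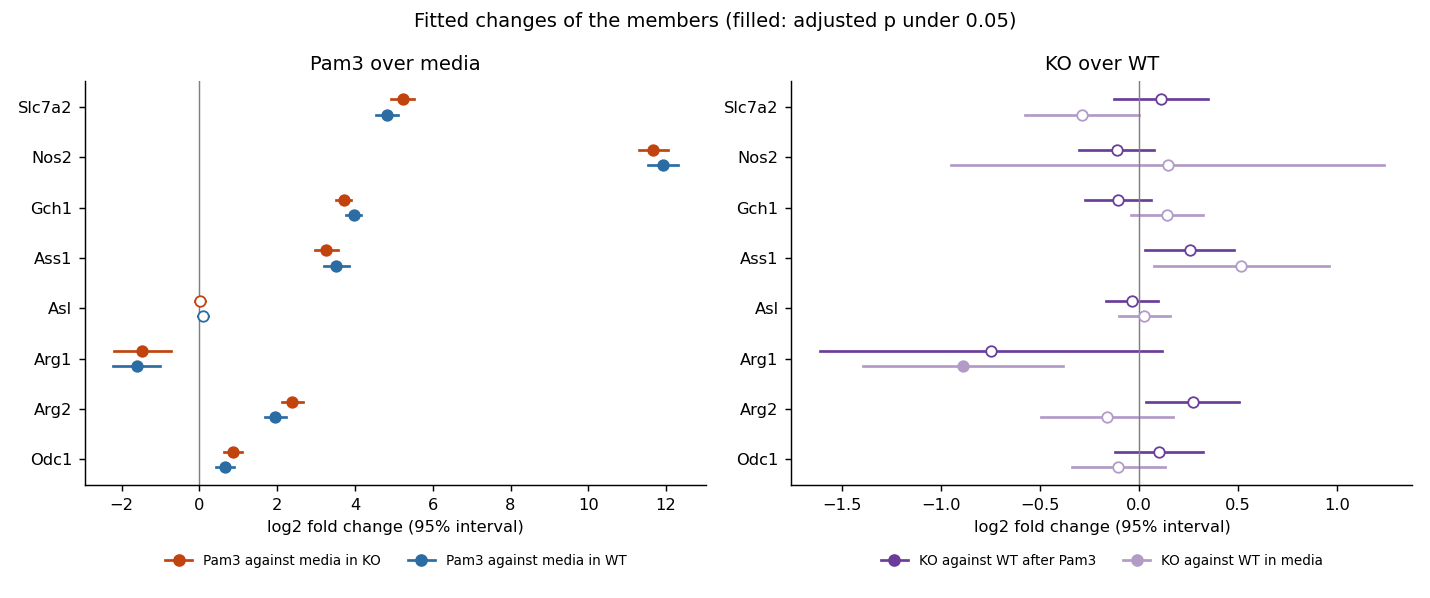
Fitted log2 fold changes of the 8 genes with 95% intervals, Pam3 over media on the left (KO above WT for each gene) and KO over WT on the right (after Pam3 above media). Filled points passed an adjusted p under 0.05. All genes but Asl are filled on the left, and with library totals alone Asl turns lower, while Arg1 in media, at -0.89, is the only filled point on the right.

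Of the 8 genes, 0 were called between KO_Pam3 and WT_Pam3 by edgeR. At an unadjusted p under 0.05, 2 of the 8 passed. DESeq2 and limma on log2(RPKM + 0.1) called 0, and limma on log2(RPKM + 1) called 1, Ass1, as higher. For the difference between the Pam3 responses, edgeR called 0 of the 8 where 0.762% of tested genes were called (0.173% higher and 0.589% lower), 3 passed at an unadjusted p under 0.05, and DESeq2 and both limma fits called 0. The comparisons with Pam3 share their media libraries with the comparison in media, so the values of each are given side by side and not correlated.

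Levels were compared between genes on the length-corrected RPKM scale deposited by the authors. After Pam3 the order was Nos2, Gch1, Slc7a2, Asl, Arg2, Ass1, Odc1 and Arg1 in both genotypes, with means from 75.7 RPKM for Nos2 to 0.0986 RPKM for Arg1 in KO_Pam3, and from 81.9 to 0.166 RPKM in WT_Pam3. Nos2 and Gch1, the next in order, overlapped in range in both groups, and in WT_Pam3 so did Slc7a2 with Asl, and Arg2 with Ass1. In media the order began with Asl, at 14.8 RPKM in KO and 14.5 RPKM in WT, and Gch1, at 5.15 RPKM in KO and 4.67 RPKM in WT, and ended with Nos2, at 0.0226 RPKM in KO and 0.01997 RPKM in WT. Slc7a2 followed at 0.688 RPKM in KO and 0.842 RPKM in WT. Arg2 overlapped Odc1 in range in both genotypes. Nos2 thus stood last in media and first after Pam3. The places of Ass1 and Odc1 are uncertain and may be too low, because reads that also fit other genes are absent from unique counts. Gm5424, which shares sequence with Ass1, averaged 7.16 RPKM in KO_Pam3 and 4.97 RPKM in WT_Pam3. The place of Arg2 is uncertain too, since its counts may include reads of Vti1b.

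The ratio of Nos2 RPKM to the sum of Arg1 and Arg2 RPKM put transcripts for both uses of arginine on 1 scale. This ratio measures neither enzyme amounts nor arginine use. In media it rests on 1 to 12 reads of Nos2 per library in KO and 1 to 9 reads in WT. Its median was 29.2 in KO_Pam3 (22.7 to 33.2) and 37.7 in WT_Pam3 (27.4 to 41.6), against 0.0196 in KO_media (0.00765 to 0.134) and 0.0158 in WT_media (0.00372 to 0.0466). Nos2 transcripts thus outnumbered arginase transcripts per length in every Pam3 library and were fewer in every media library. Arg1 made up a median of 3.73% of arginase RPKM in KO_Pam3 and 7.89% in WT_Pam3, against 37.8% in KO_media and 47.5% in WT_media. Arg2 held most of the arginase RPKM in every KO library and every WT_Pam3 library, while Arg1 held 39.2% to 60.0% in WT_media. These shares and the ratio are limited by the exon bases that Arg2 shares with the more abundant Vti1b.

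**Figure D4:**
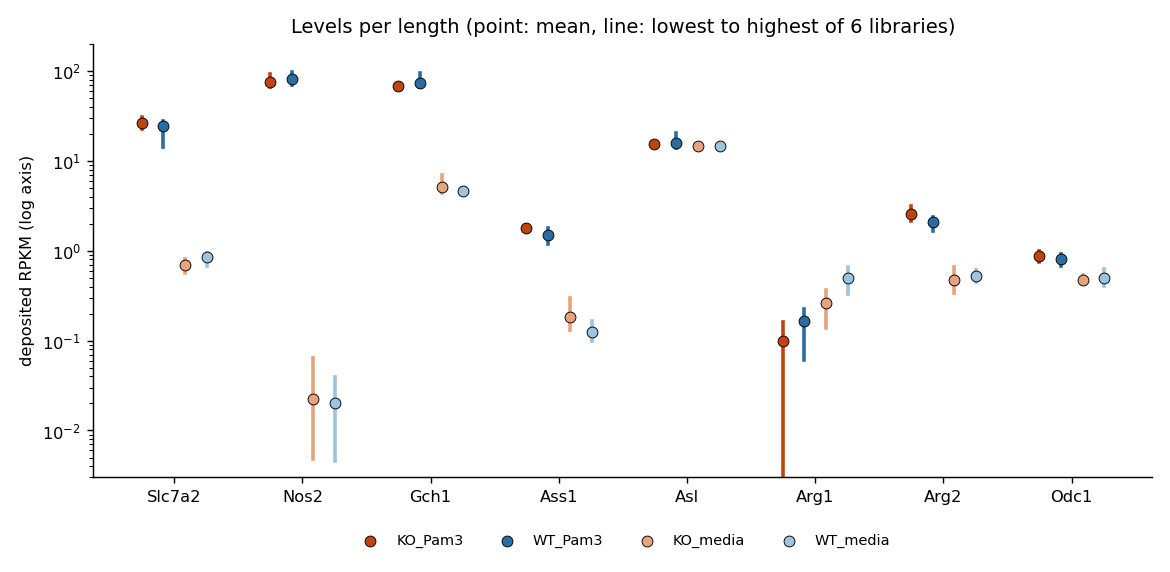
Deposited RPKM of the 8 genes by group on a log axis, with the mean as a point and a line from the lowest to the highest of 6 libraries; the KO_Pam3 line of Arg1 ends at the axis because 1 library had 0. Nos2 is lowest in media, at 0.0226 RPKM in KO and 0.01997 RPKM in WT, and highest after Pam3, at 75.7 RPKM in KO and 81.9 RPKM in WT.

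Genes around these 8 were taken from lists and read against the same background. Of all tested genes, 40.2% rose and 44.8% fell with Pam3 in KO, and 40.6% rose and 44.2% fell in WT. Of 9 tested cationic amino acid transport genes, 5 rose and 3 fell with Pam3 in KO, and 4 rose and 3 fell in WT. Slc7a1, the constitutive arginine transporter, averaged 64.2 ± 4.22 CPM in KO_Pam3 and 58.1 ± 10.2 CPM in WT_Pam3, against 7.21 ± 0.650 CPM in KO_media and 7.5005 ± 0.443 CPM in WT_media (SD, n = 6), a rise of 3.15 in KO and 2.95 in WT. Slc7a7, the light chain of an arginine exporter, rose by 1.52 in KO and 1.54 in WT. Slc38a9, a lysosomal arginine sensor, fell (log2 fold change -2.08 in KO and -2.12 in WT). Slc7a4 fell (log2 fold change -4.20 in KO and -3.59 in WT). Slc7a2 was thus not alone among arginine transporters in rising.

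All 5 other tested genes of tetrahydrobiopterin synthesis and recycling fell with Pam3 in both genotypes, opposite in direction to Gch1. Of all tested genes, 44.8% fell in KO and 44.2% in WT. Spr, sepiapterin reductase of the last step, fell (log2 fold change -1.22 in KO and -1.14 in WT). Pts, the enzyme after Gch1, fell (log2 fold change -0.73 in both). Qdpr, which recycles the oxidized cofactor, fell (log2 fold change -0.40 in KO and -0.31 in WT). Gchfr, which encodes the feedback regulator of Gch1, had 0 to 9 reads per library and did not pass the filter on low counts.

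Of 11 tested nitric oxide synthases and modulators, 5 rose and 6 fell with Pam3 in KO, and 5 rose and 5 fell in WT. Nos1 and Nos3, the other synthases, had at most 5 and 14 reads per library and did not pass the filter, so Nos2 was the only synthase tested. Cav1, caveolin, which binds the endothelial synthase, rose by 3.72 in KO and 3.97 in WT. Cav1 also differed between genotypes, by 0.48 after Pam3 (SE 0.0874, adjusted p = 0.00110) and 0.73 in media (SE 0.142, adjusted p = 0.00339). Its level was 26.9 ± 2.22 CPM in KO_Pam3 and 19.2 ± 1.97 CPM in WT_Pam3, and 2.03 ± 0.402 CPM in KO_media and 1.22 ± 0.268 CPM in WT_media (SD, n = 6). Stromal and endothelial cells also express Cav1. Their marker sums, given above, were higher in KO_media than in WT_media without overlap, and overlapped after Pam3. Most of the sums after Pam3 came from Pdgfrb and Kdr, which were lower in media. The part of stromal and endothelial cells in the Cav1 difference was not tested.

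On the routes that leave arginine or ornithine, all 3 tested genes of the urea cycle, agmatine and creatine branches fell in both genotypes. The share of all tested genes that fell was 44.8% in KO and 44.2% in WT. Gatm, which uses arginine for creatine synthesis, averaged 29.3 ± 0.913 CPM in KO_Pam3 and 29.4 ± 3.11 CPM in WT_Pam3, against 102 ± 7.80 CPM in KO_media and 102 ± 4.61 CPM in WT_media (SD, n = 6). Cps1, of the hepatic urea cycle, had 0 reads in every library. Of 8 tested genes from ornithine to proline and glutamate, 3 rose and 5 fell in KO, and 3 rose and 4 fell in WT. Oat, ornithine aminotransferase, rose by 0.74 in KO and 0.75 in WT. Of 16 tested polyamine genes, 8 rose and 5 fell in each genotype. Paox, a polyamine oxidase, fell (log2 fold change -4.49 in KO and -4.30 in WT), and Smox, spermine oxidase, fell (log2 fold change -1.49 in KO and -1.62 in WT).

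Of 8 tested genes of nitric oxide reception and disposal, 4 rose and 2 fell with Pam3 in KO, and 3 rose and 2 fell in WT. Txnrd1, thioredoxin reductase, rose by 3.58 in KO and 3.49 in WT, and Txn1, its substrate thioredoxin, rose by 2.10 in KO and 2.26 in WT. Adh5, which reduces nitrosoglutathione, fell (log2 fold change -0.29 in KO and -0.22 in WT). Of 10 tested genes of the amino acid shortage response, 6 rose and 4 fell in each genotype. Slc7a11, the cystine transporter, rose by 7.58 in KO and 7.28 in WT. Trib3, a target of this response, was higher in KO after Pam3, at 1.78 ± 0.158 CPM in KO_Pam3 and 1.07 ± 0.385 CPM in WT_Pam3 (SD, n = 6, log2 fold change 0.73, adjusted p = 0.00685), and was not called when only those groups were fitted (adjusted p = 0.0738).

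**Figure D5:**
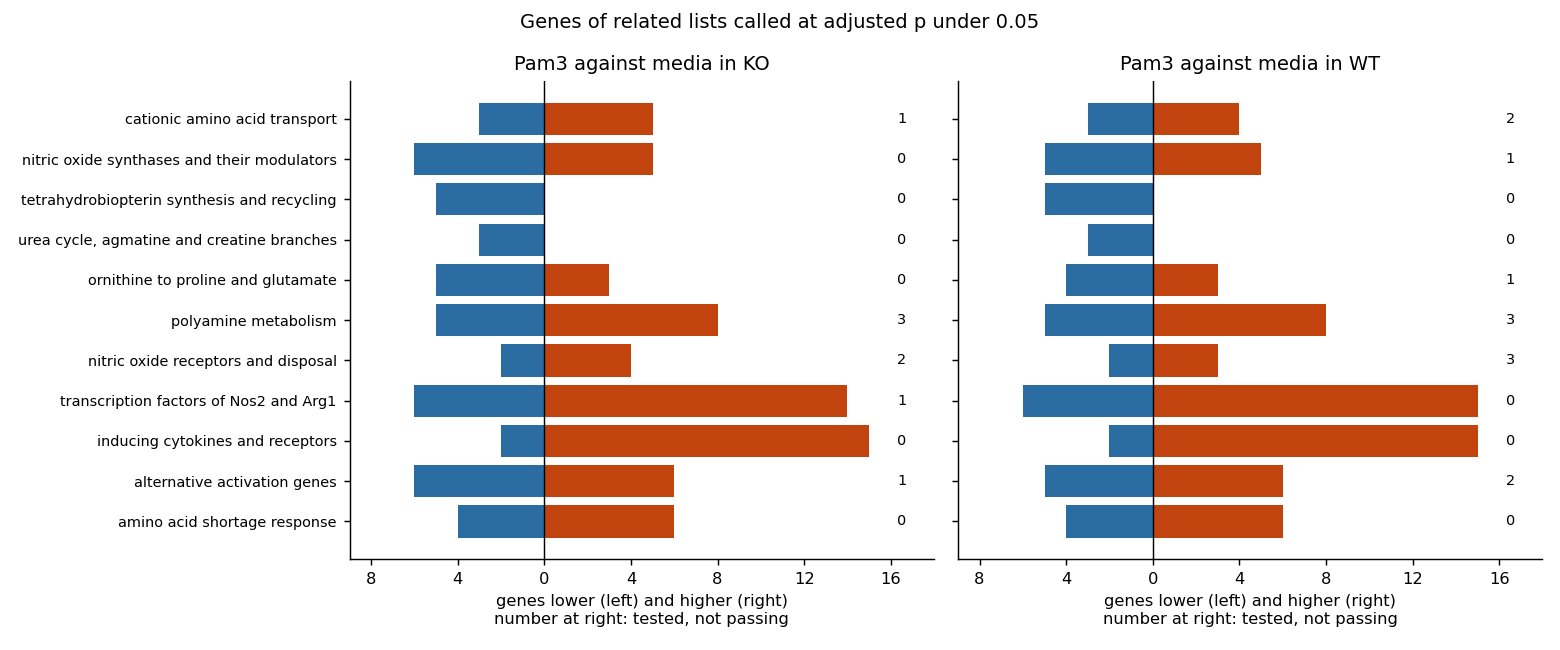
Number of genes in each related list that were called lower (left of 0) or higher (right of 0) with Pam3, in KO (left panel) and WT (right panel), at an adjusted p under 0.05; the number at the right edge is tested genes that did not pass. All 5 tested tetrahydrobiopterin genes other than Gch1 are lower in both panels, while 15 of 17 tested cytokines and receptors are higher in both. Of all tested genes, 44.8% were lower and 40.2% higher in KO, and 44.2% lower and 40.6% higher in WT.

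Among 21 transcription factors known to act on Nos2 or Arg1, 14 rose and 6 fell with Pam3 in KO, and 15 rose and 6 fell in WT. Nfkb1, an NF-kB subunit, rose by 3.04 in KO and 3.08 in WT. Pparg, a nuclear receptor of the alternative state, fell (log2 fold change -3.13 in KO and -3.12 in WT). Of 17 tested inducing cytokines and receptors, 15 rose and 2 fell in each genotype. The share of all tested genes that rose was 40.2% in KO and 40.6% in WT. Tnf rose by 9.27 in KO and 9.45 in WT. Il4 and Il13, the cytokines that induce Arg1, had at most 6 and 4 reads per library and did not pass the filter. Of 13 tested alternative activation genes, 6 rose and 6 fell in KO, and 6 rose and 5 fell in WT. Clec10a, a lectin, fell (log2 fold change -4.94 in KO and -4.66 in WT) like Arg1, whereas Ccl22 rose by 7.71 in KO and 8.37 in WT.

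Some of these regulators differed between genotypes although Nos2 did not pass the test. Irf1, which binds the Nos2 promoter in mice, averaged 729 ± 42.8 CPM in KO_Pam3 and 914 ± 70.8 CPM in WT_Pam3, and 97.7 ± 12.9 CPM in KO_media and 84.8 ± 1.67 CPM in WT_media (SD, n = 6). It was lower in KO after Pam3 by -0.33 (SE 0.0628, adjusted p = 0.00213), with 5 of 6 KO libraries below all WT libraries. Its response was smaller in KO by -0.53 (SE 0.0894, adjusted p = 0.00904), and this call held in all 30 alternatives. In media Stat2 and Irf9, which carry interferon signals, were higher in KO by 0.54 and 0.30, with all 6 KO libraries above all 6 WT libraries, a separation seen in 4.27% of tested genes. Without KO_media replicate 1 the difference of Stat2 was 0.34. Tlr2, a receptor of Pam3, was higher in KO in media by 0.21 (adjusted p = 0.00321). Chil3, an alternative activation gene, was higher in KO after Pam3 by 0.41 and in media by 0.51, opposite in sign to Arg1. The part of granulocytes, whose marker sums are given above, in the Chil3 difference was not tested. Mrc1, the mannose receptor, was lower in KO after Pam3 by -0.31 and was not called when only those groups were fitted (adjusted p = 0.171).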

How the data were processed

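PolyA RNA of 24 libraries was sequenced as single-end reads of 50 bases with an unstranded kit, per the labels' protocols. The submitters' processing notes name GSNAP and GRCm38. The sources used here give no other setting. The deposited count column holds reads aligned uniquely to each gene model, and the RPKM column was adjusted by a size factor by the authors, both per the file headers. GENCODE M21 (GRCm38) gave symbols and coordinates for 52489 of 52636 gene models, and the other 147 held 0.00387% of reads.

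Counts of all 24 libraries entered 1 fit in edgeR 4.0.16 under R 4.3.3 (quasi-likelihood F-test, TMM, filterByExpr with a minimum count of 10, a mean per group, no covariate). This left 14435 genes, all 8 members included, at a biological coefficient of variation of 8.21%. Comparisons were KO against WT after Pam3 and in media, Pam3 against media in each genotype, and their interaction (KO response to Pam3 minus WT response). Standard errors were computed from log2 fold changes and F statistics. CPM are counts scaled to TMM-adjusted library sizes and compare groups, not genes. All replicate pairs differed beyond sampling noise, so no library was counted as a repeat of another. The fit was tested on simulated counts.

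Alternatives were RLE size factors, library totals alone, no filter, only the groups compared, DESeq2 1.42.0, limma 3.58.1 on log2(RPKM + 0.1) and log2(RPKM + 1), and each library left out. Summing Ass1 with Gm5424 was added after seeing the data.

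The 8 members and Ninj1 were named in every comparison, up to 4 called genes per list and comparison by smallest adjusted p, and the 3 tested genes closest in profile to Nos2 and to Arg1, predicted gene models passed over. Some genes that this rule names are not reported here. Members and lists were chosen with earlier results of these data known. Counts of 0 give a limit of 3 reads, which covers counting error only.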

Additional observations from a re-analysis of the deposited data

Results flagged for a closer look

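A library was picked out where its gap to the nearest other library of its group was large for a group of 6. Chance flags about 1 in 20 groups. WT_Pam3 replicate 5 was low for Slc7a2 at 135 CPM and high for Gch1 at 289 CPM, for Asl at 67.4 CPM and for Ninj1 at 1145 CPM. Its other WT_Pam3 libraries had 241 to 266 CPM of Slc7a2, 201 to 221 CPM of Gch1 and 46.1 to 50.3 CPM of Asl. KO_media replicate 1 was high for Nos2 at 0.309 CPM and for Gch1 at 21.98 CPM. KO_Pam3 replicate 6 was high for Ninj1 at 479 CPM.

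The Pam3 response differed between KO and WT by an interaction test for 3 regulators in the lists around the 8 genes. It was smaller in KO for Irf1 by -0.53, for Irf9 by -0.27 (adjusted p = 0.0420) and for Tlr2 by -0.24 (adjusted p = 0.0396). Irf9 averaged 118 CPM in KO_Pam3 and 116 CPM in WT_Pam3, against 79.1 CPM in KO_media and 64.4 CPM in WT_media. Tlr2 averaged 962 CPM in KO_Pam3 and 983 CPM in WT_Pam3, against 99.3 CPM in KO_media and 85.6 CPM in WT_media. Both were thus called higher in KO in media, and neither was called between KO_Pam3 and WT_Pam3. The call of Irf9 was lost in 24 of 30 alternatives and that of Tlr2 in 22 of 30, with adjusted p up to 0.185 and 0.238.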

How the results depend on the processing

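No paired analysis was possible because the labels carry no replicate numbers, and numbers in order of deposition pair nothing. All 7 Pam3 calls of the 8 genes kept their direction in every alternative run in both genotypes, and the only one lost was that of Odc1 in WT with library totals alone, apart from Arg1 in KO, which the filter removed when only the groups compared were fitted (0 members lower, against 1). Low counts limit Arg1, Ass1 and the media values of Nos2.

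With library totals alone, 2 members were lower with Pam3 in each genotype, because Asl turned to -0.46 in KO and -0.44 in WT. That setting called 3685 genes higher and 8935 lower with Pam3 in KO, against 5803 and 6470, and 3584 higher and 9055 lower in WT, against 5859 and 6376. KO over WT after Pam3 then had 412 higher and 220.0 lower genes, against 189 and 397, and the interaction had 34 higher and 54 lower, against 25 and 85. It also turned Asl to 0.012 in KO over WT after Pam3 and the interaction of Ninj1 to 0.0033. The cause was not tested.

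Limma on log2(RPKM + 0.1) called 0 members lower in KO over WT in media, against 1, and limma on log2(RPKM + 1) called 1 member higher in KO over WT after Pam3 and 43 genes higher in the interaction, and turned the interaction of Ass1 to 0.091. DESeq2 called 294 genes lower in KO over WT in media, against 161, 599 lower after Pam3, and 90.0 higher and 303 lower in the interaction. Without the filter 183 genes were lower in KO over WT after Pam3 and 41 in the interaction. With only the groups compared, 581 genes were higher and 531 lower in KO over WT in media, and 63 higher and 114 lower after Pam3.

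Leaving out 1 library gave 154 to 658 higher and 84 to 616 lower genes in KO over WT in media, 106 to 352 higher and 267 to 826 lower after Pam3, and 8 to 102 higher and 20 to 442 lower in the interaction. The highest of each came without WT_Pam3 replicate 5. Members lower in KO over WT in media numbered 0 to 1. Signs turned for values near 0, here given as the range over single libraries left out. KO over WT in media of Nos2 was -0.44 (without KO_media replicate 1) to 0.48, and -0.069 without WT_media replicate 2. KO over WT after Pam3 was -0.0040 (without WT_Pam3 replicate 5) to 0.15 for Slc7a2 and -0.067 to 0.055 (without the same library) for Asl. Pam3 over media in WT was -0.0049 (without that library) to 0.12 for Asl. The interaction was -0.58 to 0.35 (without KO_media replicate 1) for Nos2, -0.094 to 0.027 (without WT_Pam3 replicate 5) for Asl, -0.047 (without KO_Pam3 replicate 2) to 0.41 for Arg1, with -0.036 without WT_Pam3 replicate 2, and -0.093 to 0.089 (without WT_Pam3 replicate 5) for Ninj1, with 0.0060 without KO_media replicate 3.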
